A study of Mus musculus with 12 samples.

Results

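The leukocyte adhesion genes of alopecic mouse skin were followed during topical treatment with baricitinib, an inhibitor of the Janus kinases JAK1 and JAK2. They comprised 9 genes (Icam1, Icam2, Vcam1, Sele, Selp, Itgb2, Itgal, Itga4 and Itgae), and all probe sets annotated with 1 of these symbols were taken, which gave 19 of the 45037 probe sets tested and 9 of 18193 named genes. No probe set that carried several symbols named a member. The animals were C3H/HeJ mice that had received a skin graft from an alopecic donor of the same strain, a model in which T cells attack the hair follicle. They were young adults when grafted and were kept until hair loss was nearly complete, so that all groups had established disease before daily treatment began. The 4 groups were baricitinib week 12, baricitinib week 0, vehicle week 12 and vehicle week 0, with 3 arrays in each of them. Baricitinib was put on the skin of 3 mice and vehicle alone on that of 3 others, and each of the 6 mice gave a skin biopsy at the start (week 0) and after 12 weeks. Week 0 skin of the baricitinib group was therefore diseased skin before any drug. Every value below is a log2 expression value from an Affymetrix mouse genome array, normalized by the authors with RMA (robust multi-array average), so that a difference of 1 is a 2-fold difference. The skin biopsies held many cell types, and fewer cells of a type and less RNA per cell cannot be told apart in such bulk samples.

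Leukocytes leave the blood in steps. E-selectin (Sele) and P-selectin (Selp), sugar-binding receptors of activated endothelium, slow passing leukocytes and make them roll. Integrins on the leukocyte then bind ligands of the immunoglobulin family on the vessel wall: the integrin LFA-1, made of the chains Itgal and Itgb2, binds ICAM-1 and ICAM-2, and the integrin VLA-4, made of Itga4 and Itgb1, binds VCAM-1. In the epithelium the integrin chain Itgae (CD103) pairs with Itgb7 and binds E-cadherin. It marks T cells that stay in the epidermis and around the follicle, and is also found on some dendritic cells. ICAM-1 and VCAM-1 can be induced by inflammatory cytokines, ICAM-1 also on keratinocytes, while ICAM-2 is present on resting endothelium.

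A few facts of the arrays bear on these genes. Keratinocyte markers averaged 12.17 to 12.79 in the baricitinib week 12 arrays and 11.93 to 12.33 in the other 9 arrays, and markers of skeletal muscle were also high (9.72 to 12.04 over all arrays). The arrays of baricitinib week 12 replicate 1 and baricitinib week 0 replicate 2 stood apart, with a lower quartile of 3.72 and 3.79 against 3.29 to 3.47 in the other 10 arrays. The study's methods state that an array of each baricitinib time point failed quality control and was left out of its later analysis, without naming them. A control array at baseline was also left out, and its experiment is not clearly stated. Whether any of those are among the arrays used here is not known. RNA integrity was read from the log2 difference between the 3' and 5' control probe sets of Gapdh. It was 3.39, 1.00 and 1.10 in the baricitinib week 12 arrays, 3.13, 3.83 and 2.17 in the baricitinib week 0 arrays, 2.75, 2.96 and 3.79 in the vehicle week 12 arrays, and 0.84, 3.78 and 4.29 in the vehicle week 0 arrays. Low values, meaning more even coverage, were thus found in baricitinib week 12 replicates 2 and 3 and in vehicle week 0 replicate 1. The results below are therefore also given, where it matters, without the pair of arrays that stood apart and with this index, averaged with the same index of Actb, as a covariate.

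After 12 weeks of baricitinib, Vcam1 and Itgb2 were lower than at week 0. Vcam1 was 3.48-fold lower and Itgb2, the shared chain of the leukocyte beta-2 integrins, 3.08-fold lower, and these were the only 2 of the 19 probe sets that passed the test in this comparison (limma, Benjamini-Hochberg adjusted p under 0.05 over all probe sets). That fit did not pair the arrays of a mouse. With each mouse as a block neither passed (limma, adjusted p = 0.0835 for Vcam1 and 0.122 for Itgb2). The other probe sets of Vcam1 differed by 0.00 and -0.43. Itgae, Itgal and Icam1 were also below their week 0 values in every array without passing, Icam2 was above them, and Sele, Selp and Itga4 overlapped between the weeks, each gene read by its brightest probe set. The 2 calls were 10.5% of the members' probe sets, where 0.875% of all probe sets were called lower and 0.362% higher. Of the 19 probe sets, 14 had a difference below 0 and the median was -0.43, with a median of 0.00 over all probe sets tested. The groups did not overlap for 6 member probe sets that were lower and 1 that was higher, against 7.91% and 7.97% of all probe sets. A gene with several probe sets was represented by the one that was brightest on average. In the representing probe sets 8 of the 9 genes were below 0 and the median was -0.81. Only 10 of the 19 probe sets were above their array's median on at least 3 arrays, and among the representing probe sets Sele alone was not.

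**Figure D1:**
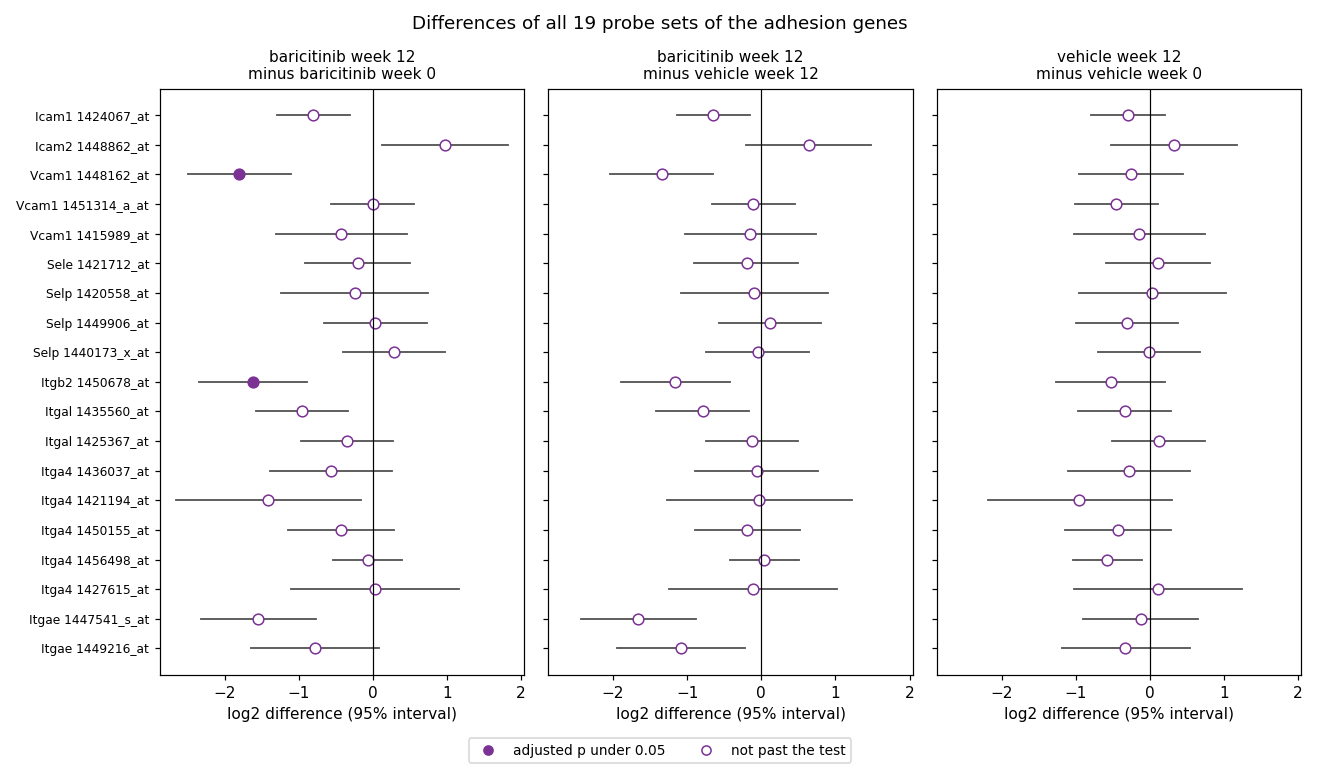
Log2 differences of all 19 probe sets of the 9 adhesion genes in 3 comparisons (x axis, log2 units; bars, 95% intervals from limma; filled points, adjusted p under 0.05). Only Vcam1 1448162_at and Itgb2 1450678_at are filled, both for baricitinib week 12 minus baricitinib week 0, and none is filled in the other 2 comparisons.

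Vcam1 encodes VCAM-1, the endothelial ligand of VLA-4. Its representing probe set (1448162_at) read 7.72, 7.38 and 6.84 in the baricitinib week 12 arrays, 9.18, 9.24 and 8.92 in the baricitinib week 0 arrays, 8.10, 8.69 and 9.18 in the vehicle week 12 arrays, and 9.15, 9.03 and 8.54 in the vehicle week 0 arrays. All 3 baricitinib week 12 arrays lay below all 9 others. The share of all probe sets that separate so from all other arrays was not counted, which applies to the genes below as well. The difference between baricitinib week 12 and week 0 was -1.80 (SE 0.32, 95% interval -2.50 to -1.10, n = 3 each), with an adjusted p of 0.0228. With each mouse as a block the adjusted p was 0.0835. The call was also lost without baricitinib week 0 replicate 1, 2 or 3 (adjusted p = 0.0798, 0.0644 and 0.083) and without baricitinib week 12 replicate 2 or 3 (0.0821 and 0.1), while the difference stayed between -2 and -1.56. Without the pair of arrays that stood apart it was -1.94 (adjusted p = 0.0384), and with the RNA index as a covariate it was -1.71 (adjusted p = 0.0235). Against vehicle at week 12 the difference was -1.34 (95% interval -2.04 to -0.65, adjusted p = 0.1), 2.54-fold lower with baricitinib and without overlap, but not past the test. The other probe sets of Vcam1 disagreed with the first. The probe set 1451314_a_at, above its array's median on 5 of 12 arrays, differed by 0.00 between baricitinib week 12 and week 0 (adjusted p = 0.999), and 1415989_at, above it on 1 array, by -0.43 (adjusted p = 0.758). The mean of the 3 probe sets differed by -0.74 (adjusted p = 0.154).

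Icam1 encodes ICAM-1, a ligand of LFA-1. The single probe set (1424067_at) read 9.30, 9.42 and 9.20 in the baricitinib week 12 arrays, 10.26, 9.82 and 10.26 in the baricitinib week 0 arrays, 10.04, 9.94 and 9.89 in the vehicle week 12 arrays, and 10.50, 10.36 and 9.88 in the vehicle week 0 arrays. The treated arrays were again the lowest 3 of the 12, and they were close to each other (9.31 ± 0.11, against 10.11 ± 0.25 at baricitinib week 0, SD, n = 3 each). Between baricitinib week 12 and week 0 the difference was -0.81 (SE 0.23, 95% interval -1.30 to -0.31, 1.75-fold lower), and with an adjusted p of 0.126 it did not pass. Against vehicle at week 12 it was -0.65 (95% interval -1.14 to -0.15, adjusted p = 0.288). With the RNA index as a covariate the difference between the weeks was -0.97 and passed (adjusted p = 0.031). With each mouse as a block its adjusted p was 0.248, and with only the 2 groups compared it was 0.317. When each array was left out in turn it passed in 0 of 12 fits.

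Icam2, whose product is a ligand of LFA-1 on resting endothelium, ran the other way. It read 6.39, 6.38 and 6.06 in the baricitinib week 12 arrays, 5.86, 4.53 and 5.51 in the baricitinib week 0 arrays, 5.75, 5.84 and 5.33 in the vehicle week 12 arrays, and 5.90, 5.48 and 4.58 in the vehicle week 0 arrays. The 3 treated arrays were the highest of the 12. The difference between baricitinib week 12 and week 0 was 0.98 (SE 0.39, 95% interval 0.13 to 1.82, adjusted p = 0.309), and that against vehicle at week 12 was 0.64 (adjusted p = 0.64), so that neither passed. Baricitinib week 0 replicate 2 was the lowest array of all, and without the pair of arrays that stood apart the difference between the weeks was 0.53 (adjusted p = 0.576). Markers of endothelial cells moved in the same direction as Icam2. Their mean level over the 12 marker genes was 6.90 to 7.26 in the baricitinib week 12 arrays, against 5.97 to 6.43 at baricitinib week 0, and 11 of the 12 were above 0 with a median difference of 0.87. Of these markers Cldn5, a tight junction protein of the vessel wall, passed the test (2.34, adjusted p = 0.037, or 0.128 with the mouse as a block), while Vcam1 and Icam1 lay below 0. The part of vessel content in the values of the endothelial members was not tested.

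E-selectin was close to the floor of the arrays. Its probe set (1421712_at) read 3.25, 3.22 and 3.69 in the baricitinib week 12 arrays, 3.44, 4.10 and 3.23 in the baricitinib week 0 arrays, 3.67, 3.06 and 4.04 in the vehicle week 12 arrays, and 3.13, 3.48 and 3.84 in the vehicle week 0 arrays. It was below the array's median on all 12 arrays, and the groups overlapped throughout. The difference between baricitinib week 12 and week 0 was -0.20 (95% interval -0.91 to 0.50, adjusted p = 0.872), which says little about a transcript at this level. P-selectin, which endothelial cells and platelets store in granules, was measured by 3 probe sets. The representing one (1420558_at) read 8.47, 7.17 and 7.36 in the baricitinib week 12 arrays, 7.77, 8.55 and 7.40 in the baricitinib week 0 arrays, 7.31, 7.57 and 8.40 in the vehicle week 12 arrays, and 7.03, 7.99 and 8.16 in the vehicle week 0 arrays. All 4 groups overlapped, and the highest of the 12 values were those of the pair of arrays that stood apart. The difference of Selp between baricitinib week 12 and week 0 was -0.24 (95% interval -1.24 to 0.75, adjusted p = 0.895) and that against vehicle at week 12 was -0.10 (95% interval -1.09 to 0.90, adjusted p = 0.984). These intervals still hold changes of 2-fold in the lower direction. The other Selp probe sets were above the array's median on 0 arrays and differed by 0.03 and 0.29 between the weeks. With the RNA index as a covariate the Selp difference turned to 0.42.

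The stretches before the starts of Icam1 and Sele are shown because both genes are textbook targets of inflammatory signals, while Icam1 was above the array's median on all 12 arrays and Sele on none. RefSeq promoters (GRCm38.p6) were held for 4 of the 9 members (Icam1, Sele, Selp and Itga4) in the tables used. Each stretch is the 250 bases before the annotated start, 5′ to 3′ on the plus strand, at chr9:21015690-21015939 for Icam1 and chr1:164047984-164048233 for Sele. Capitals mark matches to TTCNNNGAA, the letters of a STAT site (GAS), and to GGNNNTTCC, letters within an NF-kappaB site, searched on both strands.
Icam1: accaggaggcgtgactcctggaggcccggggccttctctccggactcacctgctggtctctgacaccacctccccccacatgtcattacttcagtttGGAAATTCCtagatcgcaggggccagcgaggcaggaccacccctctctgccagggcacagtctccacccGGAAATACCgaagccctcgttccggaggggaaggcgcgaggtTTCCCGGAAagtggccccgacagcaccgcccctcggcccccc
Sele: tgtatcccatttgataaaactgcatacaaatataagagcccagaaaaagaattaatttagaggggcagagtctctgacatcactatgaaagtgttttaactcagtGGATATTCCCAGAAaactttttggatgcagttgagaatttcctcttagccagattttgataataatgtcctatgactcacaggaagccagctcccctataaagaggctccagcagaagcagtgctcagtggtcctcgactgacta
In Icam1 the GAS letters TTCCCGGAA lay 42 to 34 bases before the start, and the NF-kappaB letters matched at 153 to 145 and at 84 to 76 bases before it. In Sele the GAS letters TTCCCAGAA (140 to 132 bases before the start) overlapped the NF-kappaB match GGATATTCC (145 to 137), so that they appear as 1 run of capitals. Of 32851 mouse promoter windows of 250 bases, 7.02% held the GAS letters and 15.7% the NF-kappaB letters. The letters of an interferon response element, GAAA repeated after a gap of 2 bases, were held by 2.98% of the windows and by none of those of the 4 members. Selp had 1 match to the NF-kappaB letters, 14 to 6 bases before its start, and Itga4 had no match to any of these. Such matches are a description of the sequence and were not tested against the expression values.

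Itgb2 encodes the beta-2 chain (CD18), which leukocytes need for LFA-1 and for the other beta-2 integrins. It read 8.08, 7.14 and 6.94 in the baricitinib week 12 arrays, 8.65, 9.59 and 8.78 in the baricitinib week 0 arrays, 8.23, 8.62 and 8.77 in the vehicle week 12 arrays, and 9.13, 9.03 and 9.07 in the vehicle week 0 arrays. The treated arrays were the lowest 3 of the 12, although replicate 1 was close to the lowest vehicle array. The difference between baricitinib week 12 and week 0 was -1.62 (SE 0.33, 95% interval -2.35 to -0.89), with an adjusted p of 0.042. With each mouse as a block the adjusted p was 0.122, and when each array was left out in turn the call remained only without baricitinib week 12 replicate 1 (adjusted p = 0.0113) or vehicle week 0 replicate 1 (0.0479). Leaving out any of the other 10 arrays gave adjusted p-values of 0.0551 to 0.178 and differences between -1.80 and -1.33. Without the pair of arrays that stood apart the difference was -1.68 (adjusted p = 0.0123), and with the RNA index as a covariate it was -1.32 (adjusted p = 0.0424). Against vehicle at week 12 the difference was -1.16 (95% interval -1.89 to -0.42, adjusted p = 0.185), without overlap. That comparison passed when baricitinib week 12 replicate 1 was left out (-1.50, adjusted p = 0.0405) and without the pair of arrays that stood apart (-1.50, adjusted p = 0.0113).

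Itgal, the alpha chain of LFA-1, read 7.15, 6.69 and 6.22 in the baricitinib week 12 arrays, 7.67, 7.78 and 7.48 in the baricitinib week 0 arrays, 7.33, 7.56 and 7.56 in the vehicle week 12 arrays, and 8.06, 7.31 and 8.09 in the vehicle week 0 arrays (1435560_at). All treated arrays were below all 9 others. The difference between baricitinib week 12 and week 0 was -0.96 (SE 0.29, 95% interval -1.58 to -0.33, adjusted p = 0.153), and that against vehicle at week 12 was -0.79 (95% interval -1.42 to -0.17, adjusted p = 0.308), neither past the test. The second probe set, above its array's median on 0 arrays, differed by -0.35 between the weeks (adjusted p = 0.705).

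Itgae, the CD103 chain of epithelial T cells, was high on every array. Its representing probe set (1447541_s_at) read 10.08, 9.52 and 9.07 in the baricitinib week 12 arrays, 11.39, 11.17 and 10.77 in the baricitinib week 0 arrays, 11.35, 11.32 and 10.97 in the vehicle week 12 arrays, and 10.59, 11.61 and 11.81 in the vehicle week 0 arrays. The treated arrays lay below all 9 others. The difference was -1.55 between baricitinib week 12 and week 0 (SE 0.35, 95% interval -2.32 to -0.77, 2.92-fold lower) and -1.66 between baricitinib and vehicle at week 12 (95% interval -2.43 to -0.88, 3.15-fold lower). Both missed the threshold, with adjusted p-values of 0.0614 and 0.0704. Both passed without baricitinib week 12 replicate 1 (-1.81 and -1.92, adjusted p = 0.03 and 0.0352), without vehicle week 0 replicate 1 (adjusted p = 0.0282 and 0.0328), and with the RNA index as a covariate (-1.10 and -1.23, adjusted p = 0.0404 and 0.0399). Neither passed when any other single array was left out, with adjusted p-values up to 0.241 and 0.269. With each mouse as a block the adjusted p over time was 0.105. With only the 2 groups compared it was 0.152 over time and 0.124 against vehicle. The ending _s_at marks a probe set whose probes can match more than 1 transcript, so its level may not be that of Itgae alone. The second probe set (1449216_at) read 7.33, 8.07 and 7.88 in the baricitinib week 12 arrays, 9.27, 7.59 and 8.77 in the baricitinib week 0 arrays, 9.03, 9.17 and 8.33 in the vehicle week 12 arrays, and 9.15, 9.26 and 9.10 in the vehicle week 0 arrays. It overlapped between the weeks through baricitinib week 0 replicate 2 (-0.78, adjusted p = 0.472) and was below all vehicle week 12 arrays (-1.08, adjusted p = 0.317).

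Itga4, the alpha chain of VLA-4, was measured by 5 probe sets. The representing one read 7.99, 6.95 and 6.60 in the baricitinib week 12 arrays, 7.61, 8.18 and 7.44 in the baricitinib week 0 arrays, 6.67, 7.45 and 7.60 in the vehicle week 12 arrays, and 7.48, 7.33 and 7.76 in the vehicle week 0 arrays (1436037_at). The groups overlapped, since baricitinib week 12 replicates 2 and 3 were below every week 0 array, but replicate 1 was the second highest of the 12. Between baricitinib week 12 and week 0 it differed by -0.57 (95% interval -1.39 to 0.26, adjusted p = 0.626) and that against vehicle at week 12 was -0.06 (95% interval -0.89 to 0.76, adjusted p = 0.989). Without the pair of arrays that stood apart these were -0.75 (adjusted p = 0.283) and -0.47 (adjusted p = 0.375). The other 4 probe sets of Itga4 were above their array's median on at most 1 array. They differed by -1.41, -0.43, -0.07 and 0.03 between the weeks, and none passed. The groups did separate on a pair of these dim probe sets. On 1421194_at the values were 4.07, 3.82 and 3.56 at baricitinib week 12, against 4.13, 6.69 and 4.85 at baricitinib week 0 (-1.41, adjusted p = 0.325). On 1456498_at the arrays of vehicle week 12 (3.60, 3.88 and 3.67) and of baricitinib week 0 (3.81, 4.10 and 3.59) were below those of vehicle week 0 (4.11, 4.53 and 4.24).

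**Figure D2:**
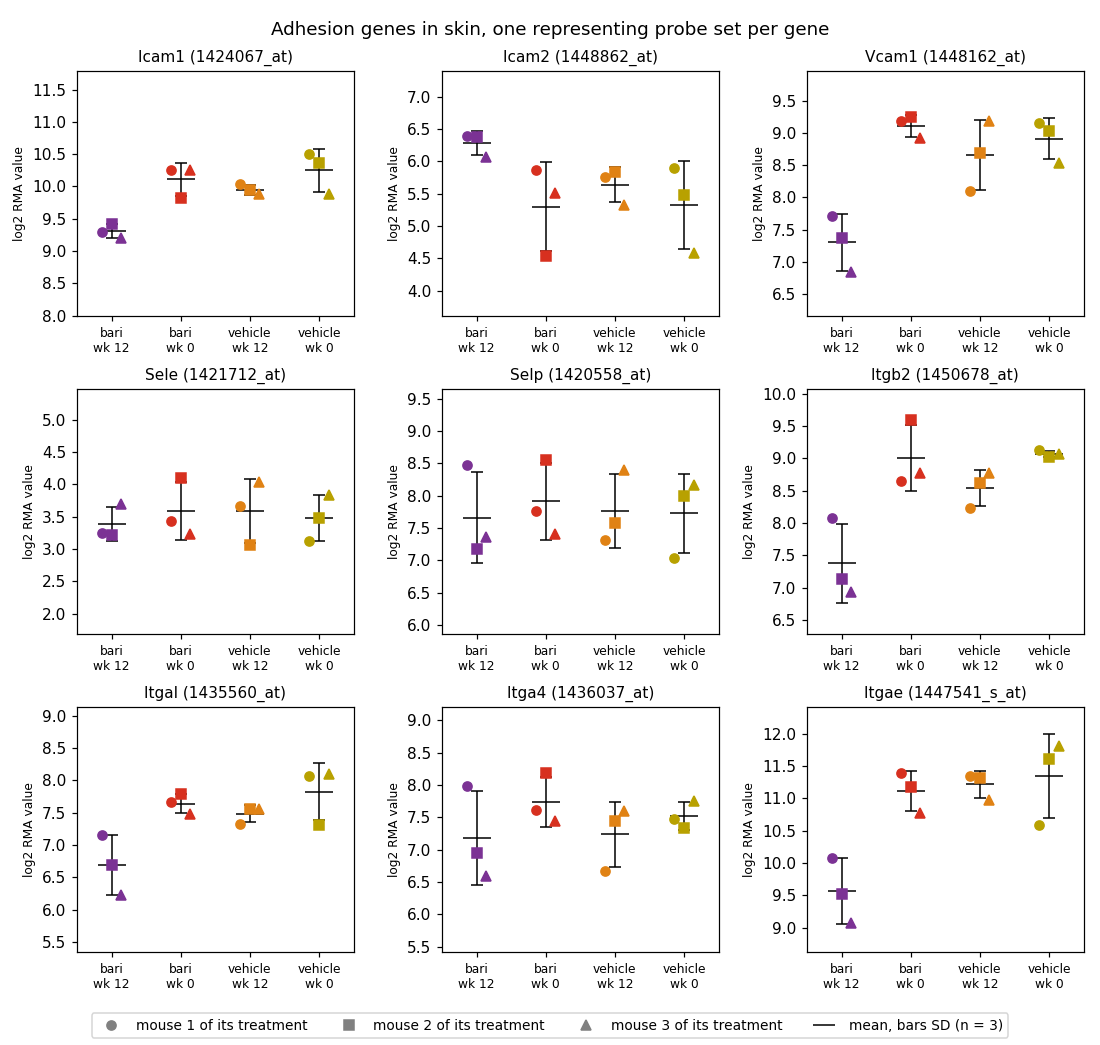
Log2 RMA values (y axes) of the representing probe set of each of the 9 adhesion genes in the 12 arrays, by group, with the symbol giving the mouse within its treatment, and mean and SD (n = 3). The 3 baricitinib week 12 arrays lie below all others for Icam1, Vcam1, Itgb2, Itgal and Itgae and above all others for Icam2, while these probe sets overlap between the groups for Sele, Selp and Itga4. The share of all probe sets that separate so from all other arrays was not counted.

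Between baricitinib and vehicle at week 12, none of the 19 probe sets passed the test (limma, smallest adjusted p = 0.0704, that of Itgae). In this comparison 0.58% of all probe sets were called, 0.429% lower and 0.151% higher. At an unadjusted p under 0.05, 6 of the 19 were lower and 0 higher, where this held for 6.01% and 4.88% of all probe sets. The groups did not overlap for 6 probe sets that were lower and 1 that was higher, against 9.69% and 7.44% of all. The 6 past the unadjusted p were a probe set each of Icam1, Vcam1, Itgb2 and Itgal and both of Itgae. The median of the 19 was -0.13, and that of the 9 representing probe sets -0.65, with 8 of them below 0. This comparison shares the baricitinib week 12 arrays with the one over time, so the values of both are given side by side above and are not independent.

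In vehicle-treated skin, none of the members passed the test over the 12 weeks. No probe set on the whole array did so either (0% called), and 1 of the 19 had an unadjusted p under 0.05, where 2.46% of all probe sets had. That was a dim probe set of Itga4 (1456498_at, -0.58, adjusted p = 1). The median of the 19 was -0.28 and that of the 9 representing probe sets -0.25, against 0.02 over all probe sets. Itgb2 differed by -0.53 (adjusted p = 1), with the 3 vehicle week 12 arrays all below the 3 vehicle week 0 arrays, a separation found for 2 of the 19 probe sets and for 3.59% of all. Vcam1 differed by -0.25, Icam1 by -0.30 and Itgae by -0.12. Before treatment, no member passed between baricitinib week 0 and vehicle week 0 skin (0% of all probe sets called, 1 of the 19 and 1.13% of all at an unadjusted p under 0.05), with a median of -0.07 over the 19 probe sets, and 1 of them, that of Itga4 given above, was lower without overlap, against 2.73% of all probe sets.

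Whether the members changed more with baricitinib than with vehicle was asked by setting the change with baricitinib against the change with vehicle. Again none passed (0% of all probe sets called), and 3 of the 19 had an unadjusted p under 0.05, all lower, where 3.26% of all probe sets were lower. Vcam1 came first, with a difference of -1.55 between the changes (SE 0.45, 95% interval -2.53 to -0.57, adjusted p = 0.448), and Itgae followed with -1.43 (adjusted p = 0.612) and Itgb2 with -1.09 (adjusted p = 0.766). For Vcam1 the changes in the single mice were -1.46, -1.86 and -2.08 with baricitinib, against -1.05, -0.34 and 0.64 with vehicle. For Itgae the changes were -1.30, -1.64 and -1.70 in the baricitinib mice, against 0.76, -0.29 and -0.84 in the vehicle mice. The 3 baricitinib mice thus lay below the 3 vehicle mice for the representing probe sets of both genes. How many of all probe sets separate the mice in this way was not counted. On the second Itgae probe set (1449216_at) the treatments overlapped. Its changes were -1.94, 0.48 and -0.89 in the baricitinib mice, against -0.12, -0.09 and -0.77 in the vehicle mice. The other Vcam1 probe sets overlapped too, with differences between the changes of 0.45 (1451314_a_at) and -0.29 (1415989_at). For Itgb2 the ranges overlapped, with -0.57, -2.46 and -1.84 in the baricitinib mice and -0.90, -0.41 and -0.30 in the vehicle mice, and for Icam1 they overlapped as well (-0.96, -0.40 and -1.06, against -0.47, -0.43 and 0.01). Icam2 was higher at week 12 in all 3 baricitinib mice (0.54, 1.85 and 0.55), against -0.15, 0.36 and 0.75 in the vehicle mice. Selp and Itga4 differed in sign among the baricitinib mice, with 0.69 and 0.38 in mouse 1 but -1.39 and -1.23 in mouse 2.

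**Figure D3:**
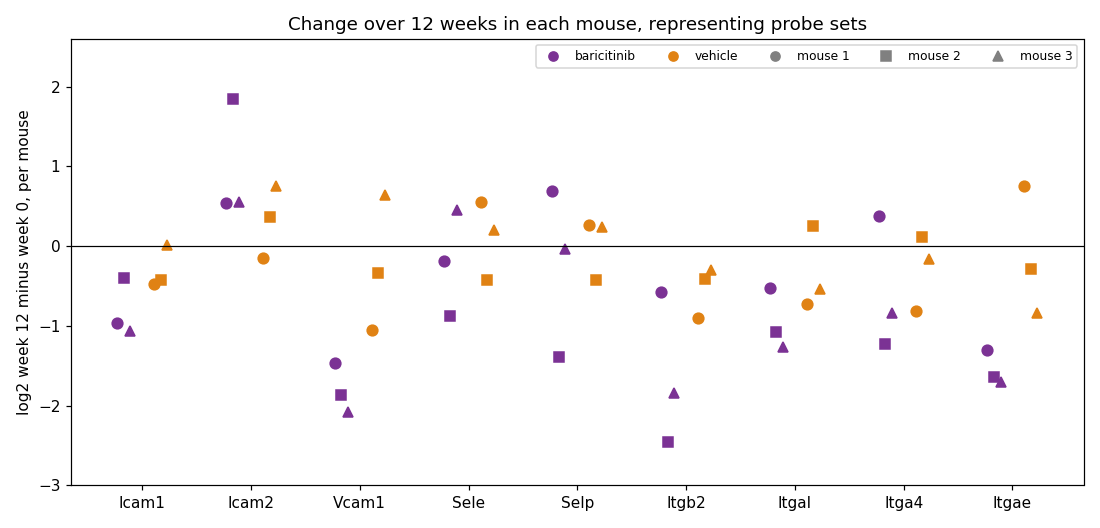
Change from week 0 to week 12 in each mouse (y axis, log2 units) for the representing probe set of each of the 9 adhesion genes (baricitinib left of vehicle, symbol giving the mouse). All 3 baricitinib mice lie below all 3 vehicle mice for Vcam1 and Itgae, and in the other genes the treatments overlap. How many of all probe sets separate the mice in this way was not counted.

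Genes that work with the members were examined as 5 lists, and 2 of their genes passed between baricitinib week 12 and week 0. Both were in the list of cytokines and NF-kappaB genes of endothelial activation, of which 2 of 15 measured genes were lower and 0 higher, with a median of -0.60. Ifng, an interferon that can induce ICAM-1, differed by -3.50 (adjusted p = 0.0028, or 0.0265 with the mouse as a block). Irf1, a transcription factor of the interferon response, differed by -1.47 (adjusted p = 0.0456, or 0.0815 with the block). Ifng also passed against vehicle at week 12 (-2.43, adjusted p = 0.0248). The cytokines that induce ICAM-1 and VCAM-1 through NF-kappaB did not pass, with -1.56 for Il1b (adjusted p = 0.0818), -1.54 for Lta (adjusted p = 0.0536) and -0.89 for Tnf (adjusted p = 0.21). Of the integrin partner chains, 0 of 7 measured genes passed in either direction and the median was -0.10. Itgax, the alpha chain of another beta-2 integrin, differed by -1.43 (adjusted p = 0.0679), Itgb7, the partner of Itgae, by -0.57 (adjusted p = 0.314), and Itgb1, the partner of Itga4, by -0.03 with an SE of 0.61. Of the selectin ligands and their glycosylating enzymes, 0 of 9 passed over time (median -0.37), but Selplg, the P-selectin ligand of leukocytes, was lower than in vehicle at week 12 (-1.67, adjusted p = 0.0485) and differed by -1.38 over time (adjusted p = 0.0679). Among 13 other integrin ligands and junction proteins none passed (median 0.13). They include Cdh1, the E-cadherin bound by Itgae, at 0.17 (adjusted p = 0.837), and the neighbours of Icam1 on chromosome 9, Icam4 and Icam5, at 0.05 and 0.13. Among 12 genes of integrin activation none passed (median -0.07).

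Markers of the cells that carry these molecules were read between baricitinib week 12 and week 0, and of the leukocyte and platelet lists only that of T cells held a gene past the test. Of 11 measured T cell markers 1 passed, Cd8a, a chain of the CD8 coreceptor, which differed by -4.29 between baricitinib week 12 and week 0 (adjusted p = 0.00912, or 0.0371 with the block), while Cd3e differed by 0.01 and Cd3d by -0.08. Cd247 (1.01, adjusted p = 0.123) and Cd3g (0.55) were above 0. Cd8b1, the other CD8 chain, was above its array's median on 1 array and differed by -0.51. The median of the 11 was -0.36, with 7 below 0. The mean level of the T cell list was 5.63 to 6.16 in the baricitinib week 12 arrays, against 5.92 to 6.88 at baricitinib week 0. Of 5 measured NK cell markers 0 passed, with a median of -0.94 and mean levels of 4.89 to 5.18, against 6.04 to 6.24. For macrophages and monocytes 0 of 9 passed (median -0.59), and their mean level was 9.35, 8.47 and 8.12 in baricitinib week 12 replicates 1, 2 and 3, against 9.17 to 9.35 at baricitinib week 0. In the representing probe sets, replicate 1 was the highest of these 3 arrays for every member except Icam1 and Sele. That array was also in the pair that stood apart. Markers of all leukocytes had 0 of 6 genes past the test (median -0.36), and Ptprc, the CD45 antigen, differed by -0.95 (adjusted p = 0.271). Against vehicle at week 12 the medians were -0.29 for T cells, -0.39 for NK cells and -0.12 for macrophages and monocytes. They were -0.27 for all leukocytes and -0.96 for neutrophils. In vehicle over time the medians were -0.22, -0.33, -0.37, -0.05 and 0.19, in the same order. Mean levels at vehicle week 12 were 6.18 to 6.84 (T cells), 5.47 to 5.90 (NK cells) and 7.97 to 9.20 (macrophages and monocytes). Neutrophil markers (median -0.91), dendritic and Langerhans cell markers (0.06) and platelet markers (-0.05) had 0 calls, as had those of mast cells (0.40), fibroblasts (0.19), pericytes and smooth muscle (0.43) and skeletal muscle (0.23). Markers of hair shaft and fat had larger medians. Of 5 measured hair shaft markers 3 were called lower (median -4.31), among them the hair keratin Krt35 (-6.51, adjusted p = 0.0022), and their mean level was 5.05 to 6.06 in the baricitinib week 12 arrays, against 8.89 to 10.66 at baricitinib week 0 and 8.08 to 8.55 at vehicle week 12. Of 5 measured adipocyte markers 1 was called higher, the lipid droplet gene Cidec (2.76, adjusted p = 0.0176, or 0.0799 with the block), and all 5 were above 0 (median 2.44). Their mean level was 10.06 to 10.57 in the baricitinib week 12 arrays, against 7.42 to 9.03 at baricitinib week 0 and 7.85 to 9.17 at vehicle week 12. Of 6 keratinocyte markers Krt15 was called higher (2.36, adjusted p = 0.0227, or 0.0657 with the block), and the median was 0.12. The part of these markers in the values of the members was not tested.

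**Figure D4:**
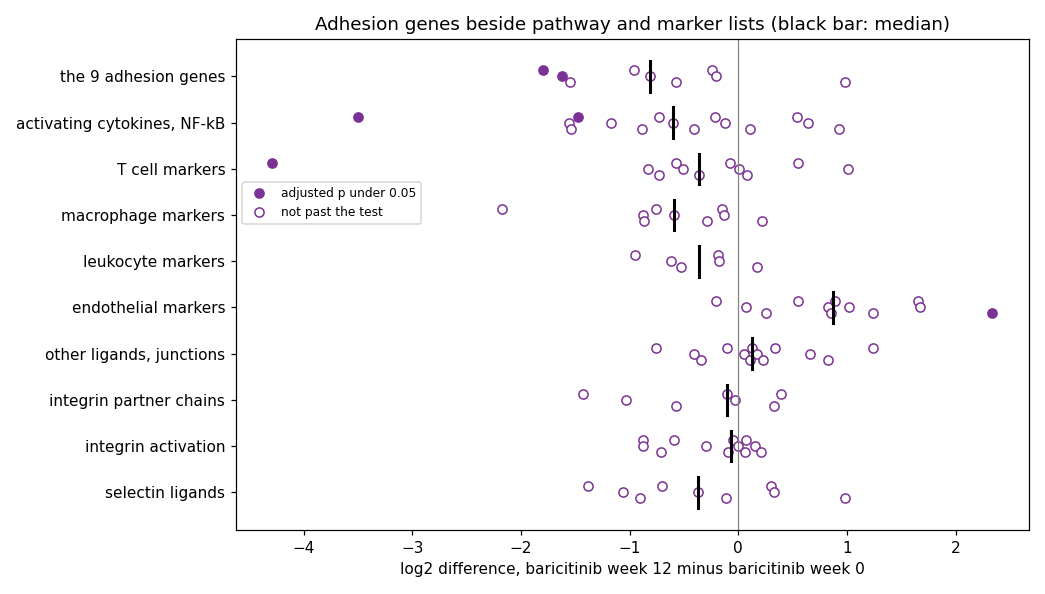
Log2 difference of each gene, baricitinib week 12 minus baricitinib week 0 (x axis), for the 9 adhesion genes and 9 lists of related genes and cell markers (rows; black bar, median; filled points, adjusted p under 0.05). The adhesion genes have a median of -0.81 and 2 filled points, whereas the endothelial markers have a median of 0.87.

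The genes with profiles most like the called members were sought among 18192 others, by the root mean square difference of centred values over the 12 arrays. For Vcam1 they were Sting1 (0.23), Mpeg1 (0.246) and Gbp7 (0.275), and for Itgb2 they were Kcnn4 (0.231), Sting1 (0.248) and Ttyh3 (0.262). Sting1 encodes an adaptor of the response to cytosolic DNA, Mpeg1 a pore-forming protein of macrophages and Gbp7 a guanylate-binding protein. Sting1 was near both, and its difference between baricitinib week 12 and week 0 was -2.08, beside -1.80 for Vcam1 and -1.62 for Itgb2. These genes were chosen by likeness over the same arrays, so similar differences between the weeks follow from that choice.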

How the data were processed

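RNA from skin biopsies was amplified, labelled with biotin and hybridized to Affymetrix arrays. The authors normalized the arrays of this experiment together by RMA, and the values used are the log2 values as deposited. The version of RMA is not given in the sources used here. The methods report arrays that failed quality control, without saying whether they entered the normalization. No further normalization was made, and 64 control probe sets were left out. This left 45037 probe sets, of which 34945 had a single gene symbol, 932 had several and 9160 had none.

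Groups were taken from the sample labels. The description of each sample ends in an animal number that recurs at both weeks under the same replicate number, so these were taken as 1 mouse. As a check, the deviations of its 2 arrays from their group means were correlated, with -0.36, -0.51 and 0.47 in mice given baricitinib and 0.44, -0.13 and 0.49 in mice given vehicle. The changes per mouse rest on this reading of the labels, since 3 of these 6 correlations were below 0. Linear models with a mean for each of the 4 groups were fitted to all 12 arrays with limma 3.58.1 in R 4.3.3, without a block and with moderated variances (8 residual and 3.54 prior degrees of freedom). P-values are two-sided, and the Benjamini-Hochberg adjustment ran over the whole array in each comparison, with a threshold of 0.05. The number of arrays, 3 per group, limits the precision. Scan dates were not used here. The deposited values hold no detection calls, so a value above its array's median was taken as the sign of a measurable level.

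All probe sets of the members are described. The gene lists were written for this report, and their genes past the test and a few others are named. The genes most alike were the 3 with the smallest difference of profiles for each called member. The members and lists were chosen with earlier results of these data known, and the sequence letters with the promoters in view. The fit was tested on simulated data before use. Alternatives left out dim probe sets (kept: above the array's median on at least 3 arrays), let the prior variance follow the level, put the mouse in as a block (fixed or random), fitted the 2 compared groups alone, renormalized by cyclic loess or by median centring, used array weights, averaged a gene's probe sets, or left out each array in turn. The covariate for RNA integrity and the removal of the pair of arrays that stood apart were added after seeing the data. Figures were drawn with matplotlib 3.10.9.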

Additional observations from a re-analysis of the deposited data

How the results depend on the processing

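The difference of Vcam1 and Itgb2 between baricitinib week 12 and week 0 kept its direction under every alternative run, but not always their calls. Of the 19 member probe sets, 2 were called in that comparison. The count was 0 with a fixed replicate block for each mouse, 0 with only the 2 groups compared, 1 with cyclic loess, 8 with array weights and 4 with the 3' to 5' index as covariate, and 0 to 3 when each array was left out. It was 3 with the filter on dim probe sets and with a prior variance that follows the level, and Itgae was then the third (adjusted p = 0.0454 and 0.0459). The random replicate block had a correlation of -0.00388 and left the count at 2, and the blocks changed no other call of a member. Between baricitinib and vehicle at week 12 the count was 0, but 6 with array weights, 1 with the mean of a gene's probe sets, 2 without the pair of arrays that stood apart, 1 with the index, and 0 to 2 when each array was left out. For vehicle over time it was 0, or 5 with array weights, for the baricitinib and vehicle groups at week 0 it was 0, or 4 with array weights, and for the difference of the changes it was 0, or 6 with array weights. Array weights did not converge and gave a weight of 32.1 to a single array, and over all probe sets they called 11277 in place of 557 between baricitinib week 12 and week 0 and 11205 in place of 261 between baricitinib and vehicle. Over all probe sets the comparison of the weeks called 158 with the fixed replicate block, 97 with only the 2 groups, 1763 with the index and 860 without the pair of arrays. The comparison with vehicle called 55 with only the 2 groups, 792 with the index and 1008 without the pair of arrays. The cause of these shifts was not tested.

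Of 45 differences of single genes, 2 were called, and 70 of 1003 alternatives turned a direction, none of them that of a called difference. With the index as covariate, Sele (0.02) and Selp (0.42) turned between baricitinib week 12 and week 0. Sele (0.01), Selp (0.54) and Itga4 (0.30) turned with it between baricitinib and vehicle, Selp (-0.08) in vehicle over time, Icam2 (0.06) between the groups at week 0, and Selp (0.51) and Itga4 (0.17) in the difference of the changes. Without the pair of arrays that stood apart, Sele (0.12) turned between the weeks, Icam1 (0.01), Icam2 (0.36), Sele (-0.14), Selp (-0.14) and Itga4 (0.00) between the groups at week 0, and Sele (0.01) in the difference of the changes. With the mean of a gene's probe sets, Selp turned between the baricitinib weeks (0.03), in vehicle (-0.10), at week 0 (-0.13) and in the difference of the changes (0.12), and Vcam1 (-0.07), Itgal (0.08) and Itga4 (-0.01) at week 0. Array weights turned Sele (-0.14), Selp (-0.39) and Itgal (0.17) in vehicle, Icam2 (0.21), Sele (-0.09), Selp (-0.31) and Itgal (0.28) at week 0, and Sele (0.03) in the difference of the changes. Cyclic loess turned Selp (0.00) in vehicle, and Icam2 (0.03) and Itgb2 (0.01) at week 0.

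When each array was left out, the difference between the baricitinib weeks ranged over -0.38 to 0.05 for Sele and -0.65 to 0.08 for Selp. Between baricitinib and vehicle it ranged over -0.47 to 0.02 for Sele, -0.5 to 0.23 for Selp and -0.47 to 0.23 for Itga4. In vehicle over time the range was -0.05 to 0.61 for Icam2, -0.52 to 0.03 for Vcam1, -0.11 to 0.38 for Sele, -0.31 to 0.26 for Selp, -0.47 to 0 for Itga4 and -0.49 to 0.12 for Itgae. At week 0 it was -0.32 to 0.01 for Icam1, -0.39 to 0.36 for Icam2, -0.14 to 0.29 for Sele, -0.17 to 0.44 for Selp, -0.36 to 0.11 for Itgb2, 0 to 0.37 for Itga4 and -0.6 to 0.01 for Itgae. In the difference of the changes it was -0.68 to 0.07 for Selp and -0.69 to 0.01 for Itga4. Sele lay near background on all arrays, and its values set no limit on a change.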
